A study of Bos taurus with 20 samples.

Results

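The genes described encode inhibitors of the MAP kinase ERK or of the steps before it: the dual-specificity phosphatases DUSP1, DUSP4, DUSP5, DUSP6, and DUSP10, the Sprouty genes SPRY1, SPRY2, and SPRY4, and the Sprouty-related genes SPRED1 and SPRED2. Of these, DUSP10 acts mainly on the related kinases p38 and JNK. They were chosen by name, as the probes whose gene name on the array, without its transcript number, was one of these 10 symbols. This gave 10 genes with 24 probes, of 22550 genes or transcripts with 61325 probes in all. Expression was measured on 20 custom bovine Agilent arrays in 1 colour, 4 biological replicates each of theca cells (TH, scraped from the follicle wall), granulosa cells (GC), cumulus cells (CC, the cells around the oocyte), oocytes (OO), and cumulus cells matured in vitro for 4 h (CC after IVM). All came from antral follicles of 3 to 6 mm, punctured in bovine ovaries collected after slaughter. TH, GC, CC, and OO were immature, with no culture, and the CC after IVM were detached once the 4 h had passed. Breed, animal age, the number of animals pooled in a replicate, and the medium of this IVM are not given in the sources used here.

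ERK is the last kinase of the cascade Ras, Raf, MEK, and ERK, and it is active when phosphorylated on both a threonine and a tyrosine. DUSP enzymes remove these phosphates, whereas Sprouty and SPRED proteins act upstream, between the receptor and Raf, and many of these inhibitors are themselves transcribed when ERK is active. In the preovulatory follicle, EGF-like ligands made in response to LH activate EGFR and ERK in CC, a step that cumulus expansion and the resumption of meiosis need.

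Each gene was read by 60-base probes, mostly a pair, and the probes of 1 gene were not always independent. The stretches that both probes held are printed here because they show which pairs read nearly the same place, and for SPRED1 and SPRY4 the start of each probe is printed because the probes of these genes gave different levels. Capitals mark bases held by both probes, and lower case marks bases of 1 probe only.
DUSP6, the whole shared stretch of 30 bases: TCAATTTTGCATATAGAGGAGCCAAAGAGA
SPRY2, the whole shared stretch of 29 bases: GGATGTGATAGTTGCTGCCAATGAGGGGT
DUSP1, the first 30 of 45 shared bases: TCCTAAGCAGGTTTGTTTTCAGCACTGGAA
SPRY1, the first 30 of 37 shared bases: GGGTAGTTCTAATCTTTTCTGTTTCATTGC
SPRED1, first 30 bases of the brighter probe: gcattaatattttcaatttgtttaaccact
SPRED1, first 30 bases of the dimmer probe: ctagaaggctaactcataatgttacctgaa
SPRY4, first 30 bases of the brighter probe: tctgaggctgtggtctctggatccagtcgt
SPRY4, first 30 bases of the dimmer probe: tttctgacgctcagggtcaagtcccagcgc
SPRY1 had 2 distinct sequences, each spotted 2 times, and DUSP10 had 3 distinct sequences on 4 spots. The probes of the other genes shared no more than 8 bases. In the UMD 3.1 coordinates of the array, the transcripts lie at chr20:4449109-4452189 (DUSP1), chr27:24815381-24828237 (DUSP4), chr26:31326729-31338433 (DUSP5), chr5:19276348-19280028 (DUSP6), chr16:25895751-25936856 (DUSP10), chr17:34749102-34753222 (SPRY1), chr12:55684001-55685894 (SPRY2), chr7:55222501-55234079 (SPRY4), chr10:33950024-34069008 (SPRED1), and chr11:63639742-63672178 (SPRED2). The exon that each probe lies in was not analysed here.

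Each level is the log2 processed intensity of a gene, as the median over its spots, after subtraction of the 75th percentile that the non-control probes had on that array. A level of 0 is thus the 75th percentile of that array, and levels are compared between arrays of 1 gene, never between genes. The CC arrays after IVM were dimmer, with a 75th percentile of 284.5 to 395.9 intensity units against 536.3 to 657.3 in CC, and OO arrays were the brightest (1521.1 to 2890.7). The share of probes well above background was 54.2% to 58.3% after IVM, 58.9% to 62.8% in CC, and 49.3% to 68.8% in OO. The TH and OO labels were borne out by marker genes, since the 5 theca markers had their highest mean in TH and the 6 oocyte markers in OO. Of the 4 granulosa and cumulus markers, FSHR, CYP19A1, and AMH were highest in CC and INHBA in CC after IVM, so none marked GC. On the log2 scale, the summed level of the theca markers was 9.17 to 9.7 in TH, 4.9 to 6.84 in GC, and 4.66 to 5.03 in CC. The part of theca cells in the GC levels was not tested. Of the 2 cumulus expansion genes matched on the array, HAS2, a hyaluronan synthase, went from -5.56 ± 0.72 in CC to 2.20 ± 0.59 after IVM (SD, n = 4 each). The other, PTX3, did not pass the test, at -0.66 ± 0.52 in CC and -0.77 ± 0.98 after IVM (SD, n = 4 each; limma adjusted p = 0.862).

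The question of the first comparison was which of the 10 genes differed between CC after 4 h of IVM and immature CC. DUSP6, DUSP1, and SPRY1 fell, by 10.5-fold, 3.15-fold, and 2.68-fold, and were well above background on all 8 arrays. DUSP5, SPRY4, and SPRED2 were called higher, but none was above background on more than 1 of the 8 arrays. SPRY2, SPRED1, DUSP10, and DUSP4 did not pass the test. That made 6 of 10 genes called at an adjusted p under 0.05 (limma, Benjamini–Hochberg over all genes), 3 in each direction, where 45.8% of all genes were called, 30.3% higher and 15.5% lower. The groups did not overlap for these 6 genes, as for 44% of all genes. Among the 11891 genes that were above background on every one of the 8 arrays, 22.6% were higher and 22.6% lower, and of the 6 feedback genes that met this, 0 were higher and 3 lower. At an unadjusted p under 0.05 in the same limma fit, 1 of them, SPRED1, was higher.

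All 4 arrays after IVM were on a slide of their own, and the CC arrays were on the other 2 slides, so slide and IVM cannot be told apart in any of these values. In bulk samples, fewer cells of a type and less RNA per cell cannot be told apart either. The median difference over all genes was 0.37 on the log2 scale. Over the 11891 genes detected on every one of the 8 arrays it was 0.05. This split of calls depends on the scaling: 66.1% of the called genes were higher here, 43.2% after quantile normalization (median difference 0.01), 58.3% when the percentile was taken over probes detected on all arrays (0.24), and 83.3% after normexp background correction (0.55). Normexp was run with an offset of 50 intensity units added to each probe before scaling. A gene near background is therefore put lower on a brighter array and higher on a dimmer one by this setting.

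**Figure D1:**
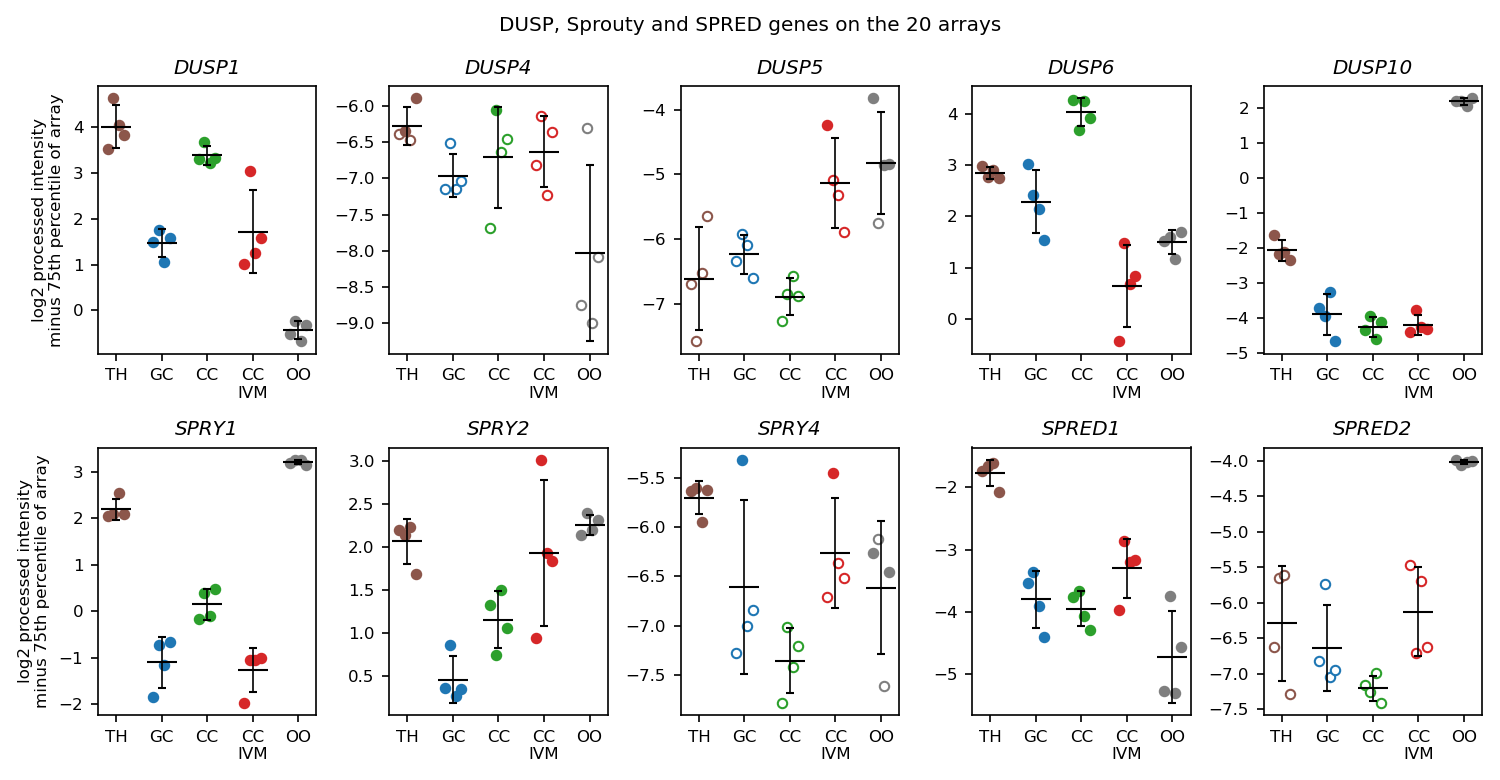
Level of each of the 10 genes (vertical axis, log2 intensity relative to the 75th percentile of the array) on the 20 arrays, by group. Each point is 1 array, filled where at least 1 probe of the gene was well above background, and the bars give the mean and SD (n = 4); DUSP6 is highest in CC (4.04) and lowest after IVM (0.64), and DUSP10 is highest in OO (2.18).

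Among the phosphatases, DUSP6 is a cytoplasmic enzyme selective for ERK. Its level on the 4 CC arrays was 4.27, 3.70, 4.25, and 3.93. After IVM it was -0.44, 1.48, 0.68, and 0.84. Every array after IVM lay below every CC array, with the first replicate the lowest. The difference was -3.40 ± 0.37 (SE, 95% interval -4.22 to -2.57; limma adjusted p = 0.000124), with -3.35 on one probe and -3.45 on the other. DUSP6 passed the test under each of the 22 alternative settings, with differences of -3.72 to -3.04.

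DUSP1, an immediate-early nuclear phosphatase that acts on p38 and JNK as well as ERK, read 3.30, 3.67, 3.20, and 3.32 on the CC arrays. After IVM it read 1.00, 3.04, 1.26, and 1.57. The second replicate after IVM lay close to the CC arrays and the other 3 were well below them, without overlap. The difference was -1.66 ± 0.40 (SE, 95% interval -2.55 to -0.76; limma adjusted p = 0.0103). With only the 2 CC arrays of slide 1, or only those of slide 2, the difference was -1.77 or -1.55 and no longer passed (limma adjusted p = 0.0569 and 0.0916), a setting chosen after seeing the data.

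DUSP5, a nuclear phosphatase selective for ERK, was at -7.27 to -6.57 in CC, above background on none of the 4 arrays. After IVM it was -4.24, -5.08, -5.32, and -5.90, above background on the first replicate only. The groups did not overlap, and the difference was 1.76 ± 0.33 (SE, limma adjusted p = 0.00317). As CC gave only an upper limit and the group after IVM was above background on 1 array only, no fold is given. Of the 6484 genes above background on at most 1 of these 8 arrays, 51% were called higher and 0.324% lower, with a median difference of 0.68, so a call upward was the common outcome for dim genes.

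DUSP10 gave -4.36, -3.95, -4.62, and -4.14 in CC and -4.42, -3.78, -4.28, and -4.33 after IVM. These values overlap, and the difference was 0.07 ± 0.23 (SE, 95% interval -0.44 to 0.57; limma adjusted p = 0.826). DUSP4, another nuclear phosphatase, was above background on 1 CC array and none after IVM, with means of -6.71 ± 0.70 and -6.63 ± 0.49 (SD, n = 4 each), with limma adjusted p = 0.877. For DUSP4 the size of a change could therefore not be measured, and the sign for DUSP4 and DUSP10 turned under some settings.

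Among the Sprouty genes, which encode inhibitors acting between receptor and Raf, SPRY1 read -0.17, 0.39, -0.10, and 0.49 in CC. After IVM it was -1.98, -1.04, -1.06, and -1.0. All 4 arrays after IVM lay below all CC arrays, and the first replicate stood apart at the low end. The difference was -1.42 ± 0.28 (SE, 95% interval -2.04 to -0.80; limma adjusted p = 0.00369), and the 4 spots gave -1.50 to -1.39. SPRY1 passed under each of the 22 alternative settings, with differences of -1.62 to -1.11.

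SPRY2 gave 1.33, 0.74, 1.50, and 1.06 in CC and 0.95, 3.01, 1.93, and 1.83 after IVM. The first replicate after IVM lay within the CC range and the other 3 above it. The difference of 0.77 ± 0.39 (SE, 95% interval -0.10 to 1.65) did not pass the test (limma adjusted p = 0.128). It rested on single arrays: without the second replicate after IVM, the highest, it was 0.41 (adjusted p = 0.28), and without the first, the lowest, it was 1.10 and passed (adjusted p = 0.034). The adjusted p was 0.034 to 0.403 over all 22 alternatives. SPRY4 was above background on no CC array and on the second replicate after IVM only, with means of -7.35 ± 0.33 and -6.26 ± 0.56 (SD, n = 4 each). It was called (limma adjusted p = 0.0183), but no fold can be given, since the bound was under 1. Without the first CC replicate SPRY4 did not pass (0.95, adjusted p = 0.0545).

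The SPRED proteins bind Ras and the Ras-GAP neurofibromin and keep Raf from being activated. SPRED1 read -3.76, -3.66, -4.07, and -4.29 in CC and -3.97, -2.87, -3.20, and -3.16 after IVM. Again the first replicate after IVM fell within the CC range, and the difference of 0.64 ± 0.27 (SE, 95% interval 0.04 to 1.25) did not pass over all genes (limma adjusted p = 0.0734). The 2 probes of SPRED1 differed. The brighter one, above background on all 20 arrays, rose by 0.96 ± 0.21 (SE, adjusted p = 0.00866 over all probes, of which 45.6% were called), whereas the dimmer one, above background on no CC array before or after IVM, gave 0.33 ± 0.40 (adjusted p = 0.531). Without the first replicate after IVM the gene passed (0.87, adjusted p = 0.0154). SPRED2 was above background on none of the 8 arrays, with means of -7.20 ± 0.17 in CC and -6.12 ± 0.63 after IVM (SD, n = 4 each). It was called higher (limma adjusted p = 0.0199), but with both groups below background no fold is given.

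**Figure D2:**
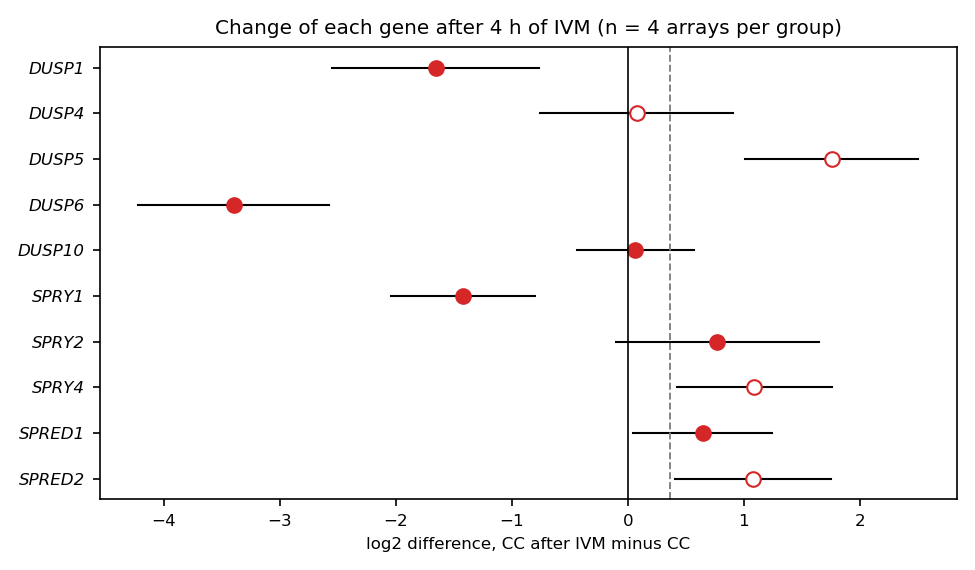
Difference in level between CC after 4 h of IVM and immature CC (horizontal axis, log2) for the 10 genes, with the 95% interval from limma (n = 4 arrays per group). Filled points were above background on all 8 arrays, the solid line marks 0, and the dashed line marks the median over all genes (0.37); DUSP6, DUSP1, and SPRY1 lie left of 0 with their whole interval.

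Markers of other cells also differed between these groups. Of the 6 oocyte markers, ZP2, ZP3, ZP4, and NLRP5 were lower after IVM, of which ZP3 and NLRP5 did not pass after quantile normalization (adjusted p = 0.0587 and 0.0562) or after normexp correction (0.185 and 0.436), and BMP15 was called higher after normexp (0.32). On the log2 scale the summed level of the 6 was -0.83 to 1.59 in CC, -2.64 to -0.84 after IVM, and 7.95 to 8.37 in OO. SPRY1 and DUSP10 were highest in OO, so the level in CC was set beside these markers. SPRY1 in CC lay 3.07 below OO, whereas ZP2, the oocyte marker with the smallest gap, lay 7.24 below. For DUSP10 the gap was 6.45. The 3 blood cell markers were called higher after IVM, with a summed level of -3.57 to -2.25 in CC and -1.16 to -0.05 after IVM. PTPRC, the leukocyte marker, was above background on none of the 8 arrays and HBB on no CC array. CD68 was above background on all 8 arrays and rose by 2.15 (limma adjusted p = 0.00188). Of the endothelial markers, 2 of 3 were called higher (-5.63 to -4.86 in CC, -4.34 to -3.12 after IVM), and CDH5 was above background on none of the 8 arrays. After quantile normalization PTPRC, HBB, and CDH5 were no longer called, whereas CD68 and the endothelial marker VWF still were (limma adjusted p = 0.0032 and 0.00824). On its brightest probe VWF did not pass (1.65, limma adjusted p = 0.07). VWF was also above background on all 4 OO arrays, with a mean of -0.59 against -0.02 in TH, so it did not mark endothelium only. None of the 5 theca markers passed the test (limma; 1, COL1A1, had an unadjusted p under 0.05). Of the granulosa and cumulus markers, FSHR, CYP19A1, and AMH were lower after IVM and INHBA higher, though the brightest FSHR probe gave 0.06 and INHBA was lost after quantile normalization. CYP19A1 was lost after quantile normalization (adjusted p = 0.0685) and on its brightest probe (0.0586). The part of these cells in the changes of the feedback genes was not tested.

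The next comparison asked how the 10 genes differed among the follicle cells. All 10 passed the F-test over TH, GC, CC, and OO (limma adjusted p from 9.65e-12 for DUSP10 to 0.0215 for DUSP4), as did 71.3% of all genes. When the 5 group means of each gene, CC after IVM included, were put in order, 14 of the 40 neighbouring pairs differed. These pairs were tested in 1 fit of the 20 arrays, in which the share of all genes called ran from 8.06% for GC against CC to 80.2% for CC after IVM against OO. Genes called between TH and CC made up 29%, between TH and GC 23.7%, between TH and OO 64%, between GC and OO 69.9%, and between CC and OO 63.1%. CC after IVM differed from CC in 35.8% of all genes in this fit and from GC in 28.1%. Slide and group cannot be told apart in any pair with CC after IVM, whereas TH, GC, CC, and OO each had 2 arrays on each of the other slides. Relative to the 75th percentile, the median of all genes in OO was 0.40 below CC, 0.42 below TH, and 0.62 below GC.

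DUSP6 was highest in CC, where it exceeded TH by 1.18 ± 0.33 (SE, adjusted p = 0.00976). TH (2.86 ± 0.12) and GC (2.29 ± 0.62, SD, n = 4 each) did not differ beyond their spread (adjusted p = 0.259), OO (1.50 ± 0.23) was below GC by 0.79 (adjusted p = 0.0409), and CC after IVM was below OO by 0.86 (adjusted p = 0.0239). CC thus held the highest mean of DUSP6 before IVM and the lowest of the 5 groups after it. DUSP1 was highest in TH (4.00 ± 0.47), where it did not pass against CC (3.37 ± 0.20, adjusted p = 0.198). CC after IVM (1.72 ± 0.91) and GC (1.47 ± 0.30) did not differ for DUSP1 (adjusted p = 0.623), and OO was lowest (-0.43 ± 0.20), 1.90 below GC (adjusted p = 5.55e-05). The order of the 5 groups was unchanged under all 7 alternatives of scaling, background, and probe summary for DUSP1, DUSP6, and SPRY1.

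DUSP10 and SPRY1 were highest in OO. DUSP10 gave 2.20, 2.20, 2.05, and 2.27 on the OO arrays and -1.65, -2.18, -2.14, and -2.35 in TH, a difference of 4.26 ± 0.25 (SE, adjusted p = 1.53e-11). It was lower by a further 1.83 in GC (adjusted p = 1.84e-05), and GC, CC, and CC after IVM lay together at -3.91, -4.27, and -4.20. SPRY1 gave 3.20, 3.26, 3.25, and 3.15 in OO and 2.06, 2.09, 2.54, and 2.09 in TH (difference 1.02 ± 0.27, SE; adjusted p = 0.00225). TH exceeded CC by 2.05 (adjusted p = 5.41e-06), and CC exceeded GC (-1.10 ± 0.55) by 1.25 (adjusted p = 0.00495), whereas GC and CC after IVM did not differ (adjusted p = 0.682). OO kept the highest mean of DUSP10 and SPRY1 under all 7 alternatives.

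SPRED2 was above background in OO only, at -3.99, -4.05, -4.01, and -4.00, with the other groups below background on all of their arrays. Its level in OO was at least 2.42-fold higher than in TH, 2.03-fold than in GC, 2.64-fold than in CC, and 1.66-fold than in CC after IVM. After normexp background correction OO had the lowest mean of SPRED2 and the gene did not pass the F-test (adjusted p = 0.21). The offset of that setting raises the other groups, all below background, relative to OO, whose arrays were the brightest. Neither result therefore ranks the groups for SPRED2. SPRED1 was highest in TH (-1.76 ± 0.21), 1.54 above CC after IVM (adjusted p = 0.000679), and both of its probes were above background on the 4 TH arrays. The dimmer SPRED1 probe was above background in no other group, and the brighter probe read 0.25 in TH, -1.44 in GC, -1.75 in CC, -0.79 in CC after IVM, and -1.47 in OO.

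SPRY2 differed little among TH (2.06 ± 0.26), OO (2.26 ± 0.11), and CC after IVM (1.93 ± 0.85), where no neighbouring pair passed, and it was lowest in GC (0.46 ± 0.27), 1.60 below TH (adjusted p = 0.000578). For SPRY4, the brighter probe was above background on all 4 TH arrays (mean -4.03), on 2 OO arrays and 1 array after IVM, and on no GC or CC array, whereas the dimmer probe was so on 1 GC array only. DUSP5 was above background on 3 OO arrays (mean over the 4 arrays -4.82 ± 0.79) and on no TH, GC, or CC array, with a bound of at least 1.51-fold over CC, 1.38-fold over TH, and 1.16-fold over GC. OO became the lowest group for DUSP5 after normexp correction, where the offset again raises the groups below background relative to OO. DUSP4 was above background on 2 TH arrays and 1 CC array, and on no GC or OO array. The pair GC over OO was still called for DUSP4 (1.08, limma adjusted p = 0.0435), with neither group above background. The F-test of DUSP4 was lost without OO replicate 1, 3, or 4 (adjusted p = 0.0841, 0.0873, and 0.0549) and when levels were set relative to the array median (0.0604).

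**Figure D3:**
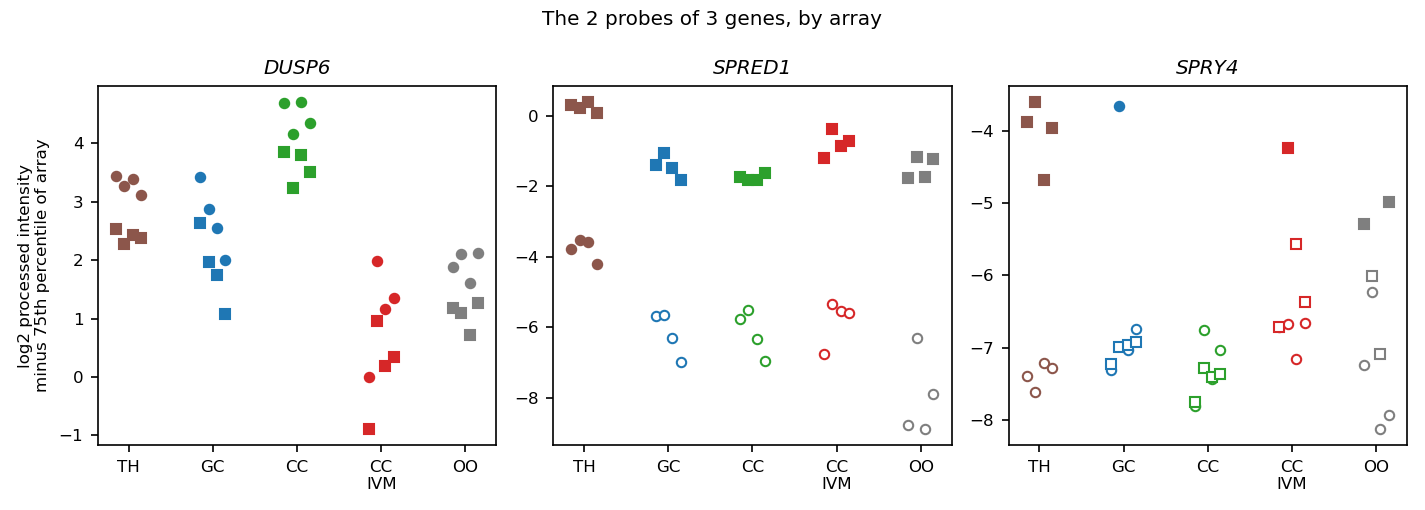
Level of each of the 2 probes (circles and squares, with the vertical axis giving log2 intensity relative to the 75th percentile of the array) of DUSP6, SPRED1, and SPRY4 on the 20 arrays, by group. Filled symbols were well above background; the DUSP6 probes run in parallel, whereas 1 SPRED1 probe was above background in TH only and 1 SPRY4 probe was above background on all TH arrays while the other was on none.

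The genes whose levels over the 20 arrays were most like those of DUSP6, the gene with the largest fall, were sought among the 11356 genes that every group showed above background on 3 or more arrays. Among the most alike were FAM89A (Pearson r = 0.94), GADD45G (0.93), CTU2 (0.91), and LRFN3 (0.91). The 20 arrays fall into 5 groups, so these r describe the order of the groups and have no test. GADD45G, a stress-inducible gene of the GADD45 family, was at 4.31 in CC and 0.91 after IVM.

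The other genes of the pathway were followed in 9 lists, of which 103 genes were on the array. Of these, 33 were higher after IVM and 18 lower, which is 32% and 17.5%, near the 30.3% and 15.5% of all genes, and their median difference was 0.33, against 0.37. Among the 67 of them above background on all 8 arrays, 32.8% were higher and 14.9% lower. Of the 11891 genes of the array that met this, 22.6% were higher and 22.6% lower. The median difference was 0.2 for the 67 and 0.05 for the 11891. Whether the lists differ from all genes was not tested. Among the ligands, 4 of 6 were higher and 1 lower. AREG and EREG, the EGF-like ligands of the ovulatory follicle, were above background on no CC array and on all 4 after IVM, at least 15.4-fold and 8.12-fold higher. HBEGF rose by 4.43 ± 0.26 (SE, adjusted p = 5.95e-06), and BTC fell by 1.11 ± 0.25 (SE, adjusted p = 0.00808). TGFA was called, but it was above background on no array of either group and was lost after quantile normalization, and NRG1 did not pass. Of the 4 receptors, EGFR was higher (1.22, adjusted p = 0.00721), ERBB3 and ERBB2 were lower (-2.55 and -1.31), and 1 did not pass. ERBB2 was above background on 1 array after IVM and was called higher after normexp correction (0.30).

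Among adaptors, Ras, and Raf, 7 of 16 genes were higher, such as BRAF and RRAS2 (1.47 and 1.05), and the docking protein gene GAB1 was lower by 10.5-fold (-3.39 ± 0.33, SE; adjusted p = 6.74e-05). Of the 10 genes of MEK, ERK, and the kinases that ERK activates, RPS6KA1 (2.22), MAP2K1 (1.88), and RPS6KA3 (1.50) were higher, RPS6KA5 (-1.12) was lower, and 6 did not pass. Of the 25 transcription factors and early genes downstream of ERK, not all of them induced by it, 8 were higher and 6 lower. Among the higher were FOSL1 (3.84, above background on 1 CC array), IER3 (2.20), and PHLDA1 (1.99). ETV4 was also called higher, but it was above background on no array of either group and was lost after quantile normalization (limma adjusted p = 0.409). The largest falls were those of CCN1 (-3.41), JUN (-3.40), and MYC (-2.51), genes that serum induces early.

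None of the other 5 MAP kinase phosphatases passed the test after IVM. Their differences were 0.43 for DUSP2, 0.29 for DUSP7, 0.81 for DUSP8, 0.25 for DUSP9, and 0.37 for DUSP16, with limma adjusted p of 0.0632 to 0.493, and 1 of them, DUSP8, had an unadjusted p under 0.05. DUSP8, DUSP2, and DUSP9 were called higher after normexp correction and in the deposited log2 table. Of the 10 other DUSP genes on the array, DUSP11 (1.71) and DUSP12 (0.81) were higher and DUSP19 (-2.25), DUSP15 (-1.47), and DUSP22 (-1.36) lower, the last of these above background on no array after IVM. DUSP15 and DUSP22 turned upward after normexp correction without passing (0.19 and 0.13). Of 16 other inhibitors of the receptor or Ras step, 4 were higher and 2 lower, with RASA2, a Ras-GAP, at 1.44 and LRIG1, which turns over EGF receptors, at -1.68 (0.16 and not called after normexp correction). SHOC2 (1.24) was on that list although it helps to activate Raf. CBL, among the higher, was above background on no array of either group and was lost after quantile normalization (limma adjusted p = 0.3). Of the 11 p38 and JNK kinases, 4 were higher, such as MAP2K3 (1.92) and MAPK8 (1.46), and 2 lower, MAPK9 (-1.68) and MAP2K6 (-1.63). Also among the higher were MAPK10 and MAPK11, above background on no array of either group. Both were lost after quantile normalization (limma adjusted p = 0.585 and 0.487). MAP2K6 did not pass after quantile normalization (adjusted p = 0.0824) or after normexp correction (-0.20, adjusted p = 0.237).

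**Figure D4:**
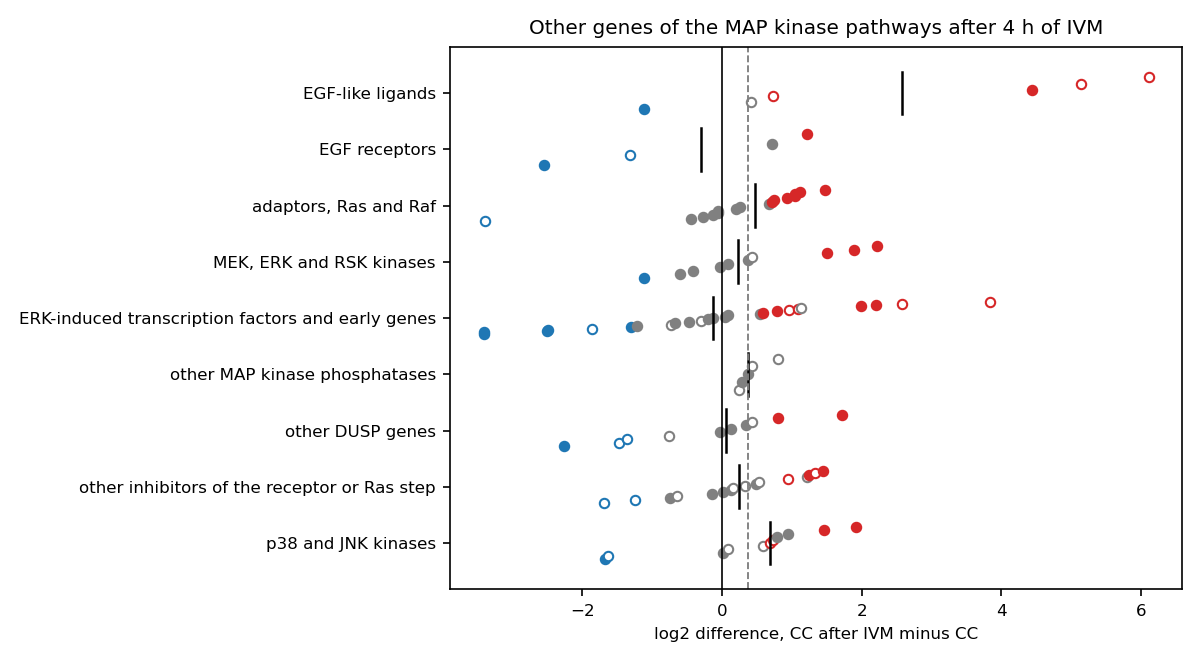
Difference in level between CC after 4 h of IVM and immature CC (horizontal axis, log2) for each of the 103 other pathway genes on the array, by list. Red points were called higher, blue lower, and grey neither (limma adjusted p threshold 0.05), filled points were above background on all 8 arrays, black bars give the median of a list, and the dashed line marks the median over all genes (0.37); none of the 5 other MAP kinase phosphatases was called.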

How the data were processed

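For each array the authors deposited the scanner output (Agilent Feature Extraction 10.7.3.1, probes annotated on UMD 3.1), which holds an intensity per spot, background-subtracted in the processed signal and not normalized between arrays. The authors also deposited a table of log2 values, each column being log2 of the median pixel signal minus the median of the array (largest deviation 5.04e-09). How that table was made is otherwise not stated in the sources that were read.

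Control spots (1519) and outlier-marked spots (none of the genes described) were removed, and log2 processed signal was set relative to its 75th percentile on each array and summarised as the median over the spots of a gene. Of 9779 probes without a gene name, 734 took a symbol from the RefSeq table through their accession. R 4.3.3 was used with the data.table package (1.17.8), and limma 3.58.1 (lmFit, eBayes) was run on 8 arrays for IVM, 16 for the F-test over cell types, and 20 for neighbouring groups, with Benjamini–Hochberg adjustment over all 22550 genes and a threshold of 0.05. P-values measure the spread between these replicates. A gene above background (the well-above-background mark of the scanner) on no array of a group was given only a bound there: the brighter group's mean over a floor, which for each dim array was its faintest detected signal or, where larger, the gene's own value. The fits were tested on simulated data. At a log2 change of 2, the IVM comparison recovered 75.5% of 200 changed genes among 22550, and at a change of 1 it recovered 0%. Only those 200 genes changed in the simulation, whereas 45.8% of all genes were called in the real IVM comparison. As the adjustment is stricter where few genes change, these shares do not give the recovery in the real comparison. Files were read and plotted with Python 3.11.15 (pandas 2.3.3, matplotlib 3.10.9, numpy 2.4.6).

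The genes, the pathway lists, and the marker lists were chosen with earlier results of these data known. Named beside the 10 genes were the 3 largest rises and the 3 largest falls of each list among called genes without overlap, all EGF-like ligands and other MAP kinase phosphatases, and the genes most alike in pattern, apart from some that are left out here. ETV4, CBL, and MAPK11 were named besides for their low signal. EGF, DUSP28, PTGS2, and TNFAIP6 were not matched on the array by name. The alternatives were quantile normalization, the array median, the percentile over detected probes, normexp (offset 50), the deposited table, the mean over probes, the brightest probe, a filter on dim genes (above background on 3 arrays of a group), arrayWeights, eBayes with trend, all 20 arrays in 1 fit, the methods' analysis of variance, slide or replicate number as a block, within-slide fits, and leaving out each replicate. Fits with the CC arrays of 1 slide were added after seeing the data. The replicate numbers do not pair CC with CC after IVM: the deviations of same-numbered arrays correlated at -0.22 to -0.04.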

Additional observations from a re-analysis of the deposited data

Results flagged for a closer look

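In 5 of the 50 groups of 4 arrays that were checked (10 genes in 5 groups), 1 array lay far from the other 3 by the Dixon criterion, and chance flags about 1 in 20 groups. SPRY1 was 2.54 on TH replicate 3, against 2.06 to 2.09 on the other TH arrays. After IVM, SPRY1 was -1.98 on replicate 1, against -1.06 to -1.0. SPRY2 was 0.86 on GC replicate 2, against 0.27 to 0.37. SPRY4 was -5.95 on TH replicate 3, against -5.64 to -5.61. SPRED2 was -5.73 on GC replicate 2, against -7.04 to -6.82, and was not above background on any GC array.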

How the results depend on the processing

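DUSP6 and SPRY1 passed the test after IVM with the same direction under all 22 alternatives, and DUSP5 under all 21 that gave it a value (0.61 to 2.01), whereas DUSP1 was lost with the CC arrays of 1 slide only. The count of members lower after IVM stayed within 1.5 times of 3 throughout. The count higher, 3 where 30.3% of all genes were higher, was 1 after quantile normalization (SPRY4 and SPRED2 lost), where 12.4% of all genes were higher, 6 after normexp correction (65.3%), 5 in the deposited table (43.2%), and 0 with the filter on dim genes (22.1% of the genes left), which left 3 called genes in all because DUSP5, SPRY4, and SPRED2 were not tested. With the CC arrays of slide 1 only, 3 members were called (1 higher) and 31 pathway genes (18 higher), and with slide 2 only, 3 (1 higher) and 30 (17 higher), with fewer arrays in the fit. The share of all genes called in these fits is not given here, so the counts cannot be set against it. Pathway genes higher after IVM, 33 of 103, were 56 of 103 after normexp, a lower share than the 65.3% of all genes. Leaving out 1 replicate at a time gave 5 to 8 members changed, 2 to 5 higher (5 without replicate 1 after IVM) and 3 to 3 lower, 39 to 54 pathway genes, 23 to 35 higher and 15 to 19 lower, 9 to 10 members in the F-test, and 11 to 16 neighbouring pairs. For these fits, too, the share of all genes called is not given here.

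The sign turned for 2 genes that did not pass. DUSP4 was -0.38 after quantile normalization, -0.046 with the percentile over detected probes, -0.56 on the brightest probe, and -0.085 with slide 2 only, and leaving out 1 replicate gave -0.25 (without CC replicate 1) to 0.30. DUSP10 was -0.056 with detected probes, -0.47 on the brightest probe, and -0.044 with slide 1 only, and leaving out 1 replicate gave -0.075 (without replicate 2 after IVM) to 0.17. Normexp called DUSP4, DUSP10, and SPRED1 higher, as it did 65.3% of all genes. The cause was not tested.

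With the replicate block, 6 members were called after IVM (3 higher, 3 lower), 44 pathway genes (27 higher, 17 lower), 10 members in the F-test, and 14 neighbouring pairs, and no array correlated best with its own number between CC and CC after IVM. The share of all genes called with this block is not given here. Slide as a block could not be fitted for IVM. For the cell types it left 10 members called, and within slide 1 DUSP4, DUSP5, and SPRY4 did not pass the F-test (adjusted p = 0.775, 0.0631, and 0.198). Of 22 neighbouring pairs without CC after IVM, 11 were called with the slide block and 5 and 6 within slides 1 and 2. The within-slide fits had 2 arrays per group. The earlier 14 of 40 pairs included those with CC after IVM, so these counts cannot be set against it. The share of all genes called in these fits is not given here. The signal over background limits DUSP4, DUSP5, SPRY4, and SPRED2, which were above background on few or none of the CC arrays.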
